A study of Mus musculus with 12 samples.

Results

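The PRC1.6 complex is a variant Polycomb repressor that binds promoters through sequence-specific factors and silences germline genes in embryonic stem cells. E2F6 and the pair of MGA and MAX recognise DNA, L3MBTL2 and PCGF6 give the complex its identity, and RING1 or RNF2 attach ubiquitin to histone H2A. MAX is also the obligate partner of MYC proteins, so PRC1.6 shares it with activators and with other repressors. The members were the genes E2f6, Mga, Max, L3mbtl2, Pcgf6, Cbx3, Rybp, Yaf2, Ring1 and Rnf2, found as probe sets whose platform annotation gives exactly 1 of these symbols. Of the 10 genes, 9 were measured this way, by 21 probe sets, among 18194 genes and 34958 single-symbol probe sets in all. Rybp had no probe set of its own, since both that name it also name a pseudogene.

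RNA came from mouse embryonic stem cells with 2 floxed alleles of Thap11, which encodes the transcription factor Ronin. Knockout cells had the genotype CreERT2; Roninflox/flox, and control cells had Roninflox/flox alone. All cells, controls included, were plated at 100000 per 10 cm2, received tamoxifen at 0.25 µM and were harvested after 1.5, 3 or 6 days. The sample records give a split on day 4, which only cells harvested on day 6 can have passed through. Differences between day 6 and the earlier days therefore cannot be told apart from that split. Each of the 6 groups had 2 Affymetrix arrays. The recombinase CreERT2 was carried by the knockout cells alone, so what it does by itself cannot be told apart from the loss of Thap11, nor can differences between the 2 cell lines; the promoter that drives it is not named in the sources used here. The 2 arrays of a group are not stated to be separate cultures, so the p-values measure only the spread between these arrays, which may be technical.

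Values are RMA intensities on a linear scale, and differences are log2 fold changes from limma, knockout over control, called at an adjusted p under 0.05. The level of Thap11, checked first, was 340.8 ± 18.9, 101.4 ± 12.3 and 51.07 ± 0.605 in knockout cells on days 1.5, 3 and 6, against 1222 ± 56.9, 1284 ± 8.13 and 1344 ± 54.0 in control cells (mean ± SD, n = 2 each). The stem cell label could be checked against 10 markers, whose summed intensity was 76910 to 79660 in knockout arrays and 76410 to 79890 in control arrays. Pou5f1, a defining pluripotency factor, had log2 fold changes of -0.01, 0.08 and 0.14 on the 3 days (limma adjusted p of 0.91, 0.27 and 0.051). Over all genes, limma called 9.91%, 23.4% and 32.5% on days 1.5, 3 and 6. Of the 10 markers, it called 2 lower on day 1.5, 3 lower and 1 higher on day 3, and 2 lower on day 6. These included Klf4, a naive pluripotency factor, at -0.42, -0.40 and -0.44 on the 3 days, and Utf1, a chromatin factor of stem cells, at -0.29 on day 6. The controls themselves moved on day 3: 27.3% of genes were called between control cells of day 3 and day 1.5, but 1.57% between control cells of day 6 and day 1.5. Day 3 was therefore also read against the controls of days 1.5 and 6. For members, related complexes and named germline targets, called results described here that lose their call or turn direction are given on both readings. The calls of marker genes and of the further germline targets at the end have the first reading alone. Primitive endoderm markers showed the same dip, with a summed intensity of 2738 and 2907 in control arrays of day 3, against 5853 to 6096 in the other control arrays, and its part in the results was not tested.

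The promoters of 2 members held an extended Ronin element, searched on both strands as the core ACTACA followed by any 2 bases and TCCC, so that each match overlaps a match of the core. RefSeq windows of 300 bases (GRCm38.p6, 250 before to 50 after the start) were at hand for 8 members, all except Rybp and Yaf2. Max and L3mbtl2 had the element, 2 of 8 members (25.0%), against 1.81% of all 32851 promoter windows and 2.08% of 27025 genes. Both windows are shown because they are the members whose promoters carry these letters and because Max was the member that fell furthest. In the first, the Max promoter at chr12:76962199-76962498 on the minus strand, capitals mark the 2 matches, which start at -205 and -93 from the start site, the second on the opposite strand, and the E-box CACGTG at -3. In the second, the L3mbtl2 promoter at chr15:81663639-81663938 on the plus strand, capitals mark the 1 match, at -94.
Max: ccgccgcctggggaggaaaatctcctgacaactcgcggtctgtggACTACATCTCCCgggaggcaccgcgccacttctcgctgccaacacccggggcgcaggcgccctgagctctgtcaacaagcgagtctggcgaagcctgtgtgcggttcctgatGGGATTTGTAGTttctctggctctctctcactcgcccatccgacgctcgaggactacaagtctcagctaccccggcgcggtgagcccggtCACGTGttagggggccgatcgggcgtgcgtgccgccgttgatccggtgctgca
L3mbtl2: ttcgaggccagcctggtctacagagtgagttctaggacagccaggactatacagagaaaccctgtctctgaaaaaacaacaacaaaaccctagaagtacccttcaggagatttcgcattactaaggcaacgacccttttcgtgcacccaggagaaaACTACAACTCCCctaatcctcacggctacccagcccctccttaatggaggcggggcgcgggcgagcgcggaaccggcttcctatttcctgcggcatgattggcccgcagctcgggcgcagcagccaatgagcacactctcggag
Max held 1 more ACTACA core, at -41, outside the extended element. The matches are letters in a window and show no binding. No other member with a window had the core, which 10.3% of all promoters hold. The extended element was also in 1 of 7 partners of PRC1.6 (14.3%) and 1 of 10 genes of the MAX network (10.0%), lists described below. On day 6, 43.1% of the 494 tested genes with the extended element fell and 22.9% rose, against 14.5% and 17.3% of 13959 genes without it. Among the 74 genes with at least 2 matches, as in Max, 54.1% fell and 14.9% rose. On day 1.5, 9.11% of the 494 fell and 9.72% rose, against 3.85% and 5.87% of genes without the element. On day 3, 33.2% fell and 22.1% rose, against 9.43% and 13.1%. Whether the element bears on the fall of Max was not tested.

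Among the members, the fall of Max and the rise of Mga were each called on day 6 in all 22 alternative settings. On that day E2f6 was also called higher and Pcgf6 lower, calls that some settings lost. On day 1.5, 0 of the 9 measured members were called by limma, where 9.91% of all genes were called (5.93% higher, 3.98% lower). At an unadjusted p under 0.05 there were 4 members, where 23.6% of all genes passed that threshold, and in 7 of 9 the arrays of the 2 genotypes did not overlap, where 53% of all genes did not overlap. On day 3 limma called 3 of 9, with L3mbtl2 and Mga higher and Max lower, where 23.4% of all genes were called (13.3% higher, 10% lower). On day 6 it called 4 of 9, with E2f6 and Mga higher and Max and Pcgf6 lower, where 32.5% of all genes were called (17.2% higher, 15.3% lower). The members' share was thus near the background on each day, and the median log2 fold change of the 9 was -0.06, 0.05 and 0.05 on the 3 days, against 0.00, 0.03 and 0.00 for all genes. The arrays of the 2 genotypes did not overlap for 6 members on day 3 (57.2% of all genes) and for 8 on day 6 (65.1%). With each array left out in turn, the count of members called ran from 0 to 1 on day 1.5, from 0 to 3 on day 3 and from 2 to 4 on day 6.

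**Figure D1:**
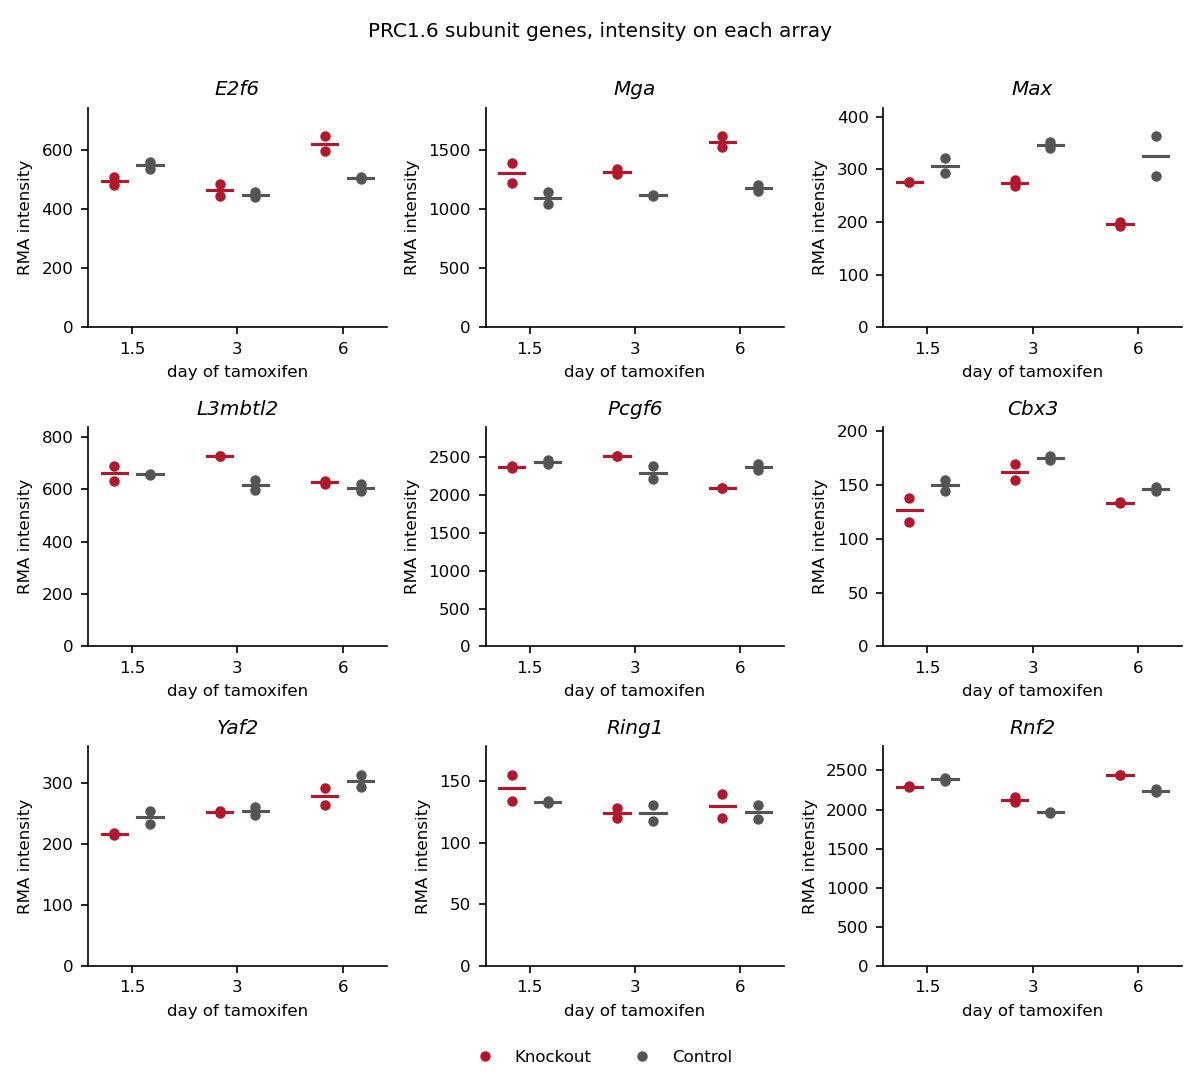
RMA intensity (linear scale, vertical axis from 0) of the 9 measured PRC1.6 genes on each array by day of tamoxifen, with knockout arrays in red left of control arrays in grey and a line at each group's mean (n = 2). All 6 knockout arrays lie below all 6 control arrays for Max and above them for Mga.

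Max encodes the small helix-loop-helix protein through which MGA, MYC and MNT bind E-boxes. Its intensity was 275.2 and 276.6 in knockout arrays of day 1.5, against 320.9 and 293.9 in control arrays. On day 3 it was 268.4 and 279.0 in knockout arrays, against 352.2 and 341.5 in control arrays. By day 6 it was 191.9 and 200.2 in knockout arrays, against 288.2 and 363.1 in control arrays. The genotypes did not overlap on any day, the knockout arrays of day 6 stood below those of the earlier days, and the control pair of day 6 was the widest. The log2 fold change was -0.15 ± 0.097, -0.34 ± 0.097 and -0.72 ± 0.097 (SE; limma adjusted p of 0.39, 0.032 and 0.00045), which left 60.6% of the control level on day 6. Between days 6 and 1.5 the effect itself differed by -0.57 ± 0.14 (adjusted p = 0.019). The fall of day 6 was called in all 22 alternative settings, at -0.56 to -0.89. The day 3 call was lost without any 1 of the 4 arrays of that day (adjusted p of 0.083 to 0.14), and against the controls of days 1.5 and 6 the value was -0.20 (adjusted p = 0.11). In these bulk samples, fewer cells of a type and less RNA per cell cannot be told apart.

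Mga, the largest member, pairs with MAX at E-boxes and also carries a T-box domain. Its brightest probe set read 1394 and 1218 in knockout arrays of day 1.5, against 1042 and 1141 in control arrays. On day 3 its readings were 1301 and 1336 in knockout arrays, against 1113 and 1119 in control arrays. By day 6 it read 1618 and 1529 in knockout arrays, against 1205 and 1150 in control arrays. All knockout arrays were thus brighter than all control arrays, and the day 6 pair was the brightest. The log2 fold change was 0.26 ± 0.075, 0.24 ± 0.075 and 0.42 ± 0.075 (limma adjusted p of 0.065, 0.048 and 0.0024). The call of day 6 held in all 22 alternative settings, whereas that of day 3 was lost without any 1 of the 8 arrays of days 3 and 6 (adjusted p of 0.063 to 0.17). Across the 12 arrays, which span 3 days and 2 genotypes, Mga and Max had a Pearson correlation of -0.91, the lowest among the members, given here as a description.

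E2f6 encodes an E2F protein that lacks an activation domain and represses through Polycomb partners. Its intensity was 480.8 and 508.0 in knockout arrays of day 1.5, against 559.9 and 535.3 in control arrays. On day 3 it was 483.6 and 444.8 in knockout arrays, against 439.5 and 456.3 in control arrays. On day 6 it was 646.0 and 595.4 in knockout arrays, against 501.2 and 508.4 in control arrays. The knockout pair was thus the dimmer on day 1.5, overlapped the controls on day 3 and was the brighter on day 6. The log2 fold change was -0.15 ± 0.065, 0.05 ± 0.065 and 0.30 ± 0.065 (limma adjusted p of 0.21, 0.65 and 0.0069). The difference of the effect between days 6 and 1.5 was 0.44 ± 0.092 (adjusted p = 0.0095). Without knockout replicate 1 of day 6 the E2f6 value was 0.24 (adjusted p = 0.061), and with the mean of its 2 probe sets it was not called (adjusted p = 0.10). Against the controls of days 1.5 and 6, the value of day 3 turned to -0.18 (adjusted p = 0.044).

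L3mbtl2 encodes the MBT-domain protein that contributes to nucleosome compaction. It read 632.5 and 690.2 in knockout arrays of day 1.5, against 659.4 and 655.5 in control arrays. On day 3 it read 728.2 and 729.0 in knockout arrays, against 636.3 and 597.4 in control arrays. By day 6 it read 621.9 and 633.8 in knockout arrays, against 593.0 and 621.1 in control arrays. The knockout pair of day 3 was the brightest of all 6 pairs, and the log2 fold change was 0.01 ± 0.059, 0.24 ± 0.059 and 0.05 ± 0.059 (limma adjusted p of 0.96, 0.017 and 0.60). The call of day 3 was lost without control replicate 2 or either knockout array of that day (adjusted p of 0.089, 0.074 and 0.069). Of the 2 members with a Ronin element, Max was thus called lower on days 3 and 6 and L3mbtl2 higher on day 3.

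Pcgf6 encodes the Polycomb RING finger protein that distinguishes PRC1.6 from the other PRC1 complexes. It read 2358 and 2375 in knockout arrays of day 1.5, against 2459 and 2402 in control arrays. On day 3 it read 2515 and 2512 in knockout arrays, against 2203 and 2372 in control arrays. On day 6 it read 2093 and 2093 in knockout arrays, against 2409 and 2332 in control arrays. The knockout pair was thus the brighter on day 3 and the dimmer on day 6. The log2 fold change was -0.04 ± 0.052, 0.14 ± 0.052 and -0.18 ± 0.052 (limma adjusted p of 0.73, 0.095 and 0.026), and the effect of day 6 lay 0.32 ± 0.074 below that of day 3 (difference -0.32, adjusted p = 0.020). The fall of day 6 was not called without any 1 of the 4 arrays of that day (adjusted p of 0.062 to 0.14), and the mean of the 3 Pcgf6 probe sets gave -0.01 (adjusted p = 0.94).

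Cbx3 encodes the heterochromatin protein HP1 gamma. It read 137.5 and 115.8 in knockout arrays of day 1.5, against 144.8 and 154.3 in control arrays, a log2 fold change of -0.24 ± 0.083 (limma adjusted p = 0.11). On days 3 and 6 its values were -0.11 ± 0.083 and -0.13 ± 0.083 (adjusted p of 0.39 and 0.28), and the knockout arrays were dimmer than the control arrays of the same day throughout. On day 1.5 Cbx3 was called, at -0.37 (adjusted p = 0.041), only without knockout replicate 1 of that day among the 12 arrays left out in turn. Mga on day 1.5 was called likewise, at 0.35 (adjusted p = 0.049), without knockout replicate 2.

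Yaf2, like Rybp, encodes a PRC1 subunit that stimulates ubiquitination. It read 218.7 and 215.3 in knockout arrays of day 1.5, against 253.8 and 233.6 in control arrays. On day 6 it read 292.6 and 264.2 in knockout arrays, against 294.2 and 313.2 in control arrays. The log2 fold changes of Yaf2 were -0.17 ± 0.069, -0.01 ± 0.069 and -0.13 ± 0.069 (limma adjusted p of 0.18, 0.95 and 0.21), and the arrays overlapped on day 3. None of the 3 days passed the test, and on day 6 the 95% interval ran from -0.28 to 0.03.

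The catalytic subunits Ring1 and Rnf2 are shared by all PRC1 complexes. Ring1 read 139.7 and 120.2 in knockout arrays of day 6, against 119.5 and 130.7 in control arrays, and its arrays overlapped on every day. Its log2 fold changes of 0.11, 0.00 and 0.05 had an SE of 0.098 each (limma adjusted p of 0.55, 1.0 and 0.75), with a 95% interval on day 6 from -0.17 to 0.27. Rnf2 read 2440 and 2441 in knockout arrays of day 6, against 2257 and 2220 in control arrays. Its log2 fold changes were -0.06, 0.11 and 0.13, each ± 0.046 (adjusted p of 0.52, 0.11 and 0.066). The Rnf2 arrays did not overlap on any day, with the knockout pair dimmer on day 1.5 and brighter on days 3 and 6.

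**Figure D2:**
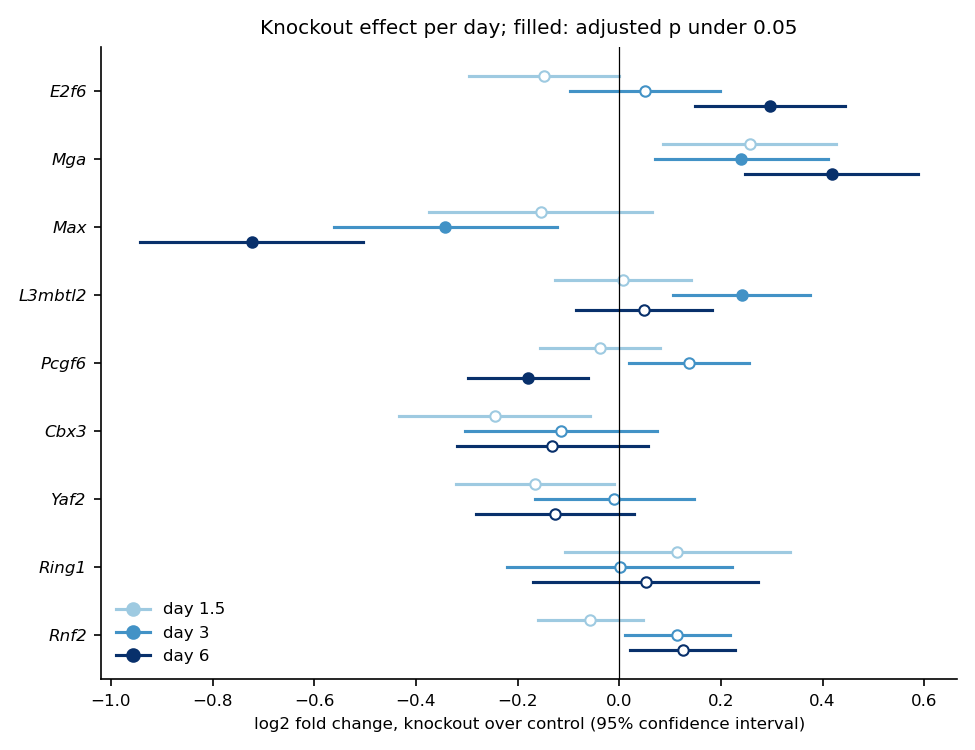
Log2 fold change of knockout over control (horizontal axis) with its 95% confidence interval for the 9 measured members on days 1.5, 3 and 6 (light to dark), filled where the adjusted p was under 0.05 over 18194 genes. Max runs from -0.15 through -0.34 to -0.72, and Mga lies above 0 on each day.

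The change of the effect between days was tested for each member as a difference of differences. Limma called 0 of 9 members between days 3 and 1.5, where 15% of all genes were called. At an unadjusted p under 0.05 there were 3 members, against 29% of all genes. It called 1 of 9, Pcgf6, between days 6 and 3 (16.4% of all genes), and 2 of 9, E2f6 higher and Max lower, between days 6 and 1.5 (19.3% of all genes). Max without control replicate 2 of day 1.5, either knockout array of that day or knockout replicate 1 of day 6 was not called (adjusted p of 0.051 to 0.066). Pcgf6 was not called without either knockout array of day 3, either knockout array of day 6 or control replicate 1 of day 6 (adjusted p of 0.051 to 0.072). E2f6 was called without each of the 12 arrays.

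Knockout cells were also compared between days. Limma called 7 of 9 in knockout cells of day 6 over day 3, where 33.5% of all genes were called. E2f6 rose by 0.42 ± 0.065, Mga by 0.25 ± 0.075 and Rnf2 by 0.20 ± 0.046, and Max fell by 0.48 ± 0.097. With the mean of probe sets, the values of Mga and Rnf2 turned to -0.08 and -0.03. Cbx3, Pcgf6 and L3mbtl2 fell by 0.28, 0.26 and 0.21. That count was 3 to 7 with each array left out. In control cells of day 6 over day 3, 3 of 9 were called, where 27.5% of all genes were called. Yaf2 rose by 0.26, Rnf2 rose by 0.19 and Cbx3 fell by 0.26. On their brightest single-symbol probe sets, Rnf2 and Cbx3 thus moved the same way in both genotypes. The 4 probe sets that name Cbx3 with a pseudogene had 0.05, -0.004, 0.05 and -0.25 in these control cells, none called.

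In control cells of day 3 over day 1.5, E2f6 fell by 0.29 ± 0.065 and Rnf2 by 0.28 ± 0.046 (limma adjusted p of 0.010 and 0.0020), 2 of 9 members where 27.3% of all genes were called. In knockout cells of day 3 over day 1.5, Cbx3 alone of the 9 was called, at 0.36 ± 0.083 (adjusted p = 0.016), where 20.6% of all genes were called. In knockout cells of day 6 over day 1.5, 5 of 9 were called, where 30.2% of all genes were: E2f6, Mga and Yaf2 rose by 0.33, 0.27 and 0.36, and Max and Pcgf6 fell by 0.49 and 0.18. In control cells of day 6 over day 1.5 limma called 0 of 9, where 1.57% of all genes were called. At an unadjusted p under 0.05 there was 1 member, against 15.2% of all genes.

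Genes with several probe sets allowed a second reading, in a fit adjusted over all 45101 probe sets, where 3.27%, 12.6% and 19.5% of probe sets were called on days 1.5, 3 and 6. The second brightest of 5 Mga probe sets read 1276 and 1131 in knockout arrays of day 6, against 817.2 and 864.5 in control arrays. Its log2 fold changes of 0.24, 0.28 and 0.52 (limma adjusted p of 0.17, 0.049 and 0.0018) followed the brightest, and the 3 dimmer Mga probe sets were not called on any day. The other E2f6 probe set read 132.4 and 141.1 in knockout arrays of day 6, against 114.7 and 137.5 in control arrays, which overlap (0.12 ± 0.13, adjusted p = 0.61). One of the other Pcgf6 probe sets read 359 and 340.6 in knockout arrays of day 3, against 255.8 and 274.2 in control arrays. It had 0.40 ± 0.091 on day 3 (adjusted p = 0.019) and -0.19 ± 0.091 on day 6 (adjusted p = 0.21). In this larger fit the main Pcgf6 probe set was at an adjusted p of 0.071 on day 6 and Max at 0.058 on day 3, whereas L3mbtl2 of day 3 was still called (adjusted p = 0.045). None of the 5 Rnf2 probe sets and neither of the 2 Yaf2 probe sets was called on any of the 3 days. Max, L3mbtl2, Cbx3 and Ring1 had 1 single-symbol probe set each, so theirs could not be compared with another of that kind. The brighter probe sets that name Cbx3 with a pseudogene, given at the end, did not follow it on day 1.5.

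**Figure D3:**
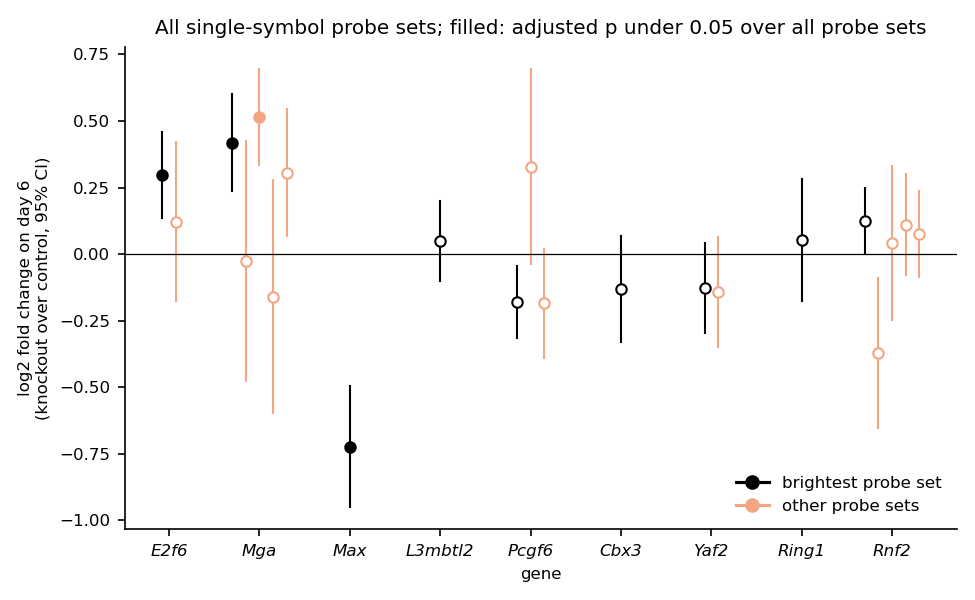
Log2 fold change on day 6, knockout over control, with its 95% confidence interval (vertical axis) for all 21 single-symbol probe sets grouped by gene, the brightest in black and the others in orange, filled where the adjusted p was under 0.05 over all 45101 probe sets. The 2 filled Mga points lie at 0.42 and 0.52, and the dim probe sets have the widest intervals.

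The known germline targets of the complex were set beside its members. This list of 25 genes was chosen with earlier results of these data known, and 24 were measured. Limma called 2 of 24 on day 1.5 (1 higher, 1 lower), 16 on day 3 (13 higher, 3 lower) and 16 on day 6, all of them higher. Over all genes it called 9.91% on day 1.5 and 23.4% on day 3 (13.3% higher, 10% lower), and 17.2% were higher on day 6. The median log2 fold change of the 24 was -0.06, 0.36 and 1.50 on the 3 days. Slc25a31, a germ cell ADP/ATP carrier, read 584.2 and 577.3 in knockout arrays of day 6, against 61.73 and 61.44 in control arrays (log2 fold change 3.24 ± 0.088). Sycp1, a part of the synaptonemal complex, read 1422 and 1427 in knockout arrays of day 6, against 173.2 and 150.4 in control arrays (3.14 ± 0.12). Both were already called on day 3, at 1.35 and 2.33.

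Taf7l, a germ cell subunit of the general transcription factor TFIID, rose by 2.57 on day 6 and by 0.49 on day 3, where the call held in 14 of 23 alternative settings. The synaptonemal gene Sycp2 rose by 2.52 on day 6 and had 0.12 on day 3, which was not called (limma adjusted p = 0.68). Ddx4, the germ cell RNA helicase, read 2323 and 2412 in knockout arrays of day 6, against 682.3 and 647.8 in control arrays (1.83 ± 0.068). Hsf2bp, a meiotic recombination factor, read 704.3 and 707.9 in knockout arrays of day 6, against 713.1 and 707.6 in control arrays, a log2 fold change of -0.01, and had 0.17 on day 3, a call that held in 5 of 23 alternative settings and was 0.08 (adjusted p = 0.23) against the controls of days 1.5 and 6. Among the 8 targets not called on day 6 the values ran down to -0.16.

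The germline counts of day 6 were 15 to 17 with each array left out and those of day 3 were 11 to 16. Against the controls of days 1.5 and 6, limma called 9 targets on day 3, 8 higher and 1 lower. Of all 18194 genes, 4637 were called on that reading (1821 higher, 2816 lower). Slc25a31 and Sycp1 were among the higher targets, at 0.90 and 1.20 (adjusted p of 4.9e-05 and 5.3e-05), and Taf7l had 0.36 (adjusted p = 0.061). Markers of primordial germ cells did not shift in 1 direction. Of 6 measured, 2 were higher and 1 lower on day 1.5, 2 higher and 3 lower on day 3, and 1 higher and 2 lower on day 6. Over all genes 9.91%, 23.4% and 32.5% were called on those days. The summed intensity of the 6 markers on day 6 was 8084 and 7962 in knockout arrays, against 9012 and 9165 in control arrays. Dppa3, an early germ cell marker that naive stem cells also express, fell by 0.62 on day 6 (adjusted p = 0.00042).

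**Figure D4:**
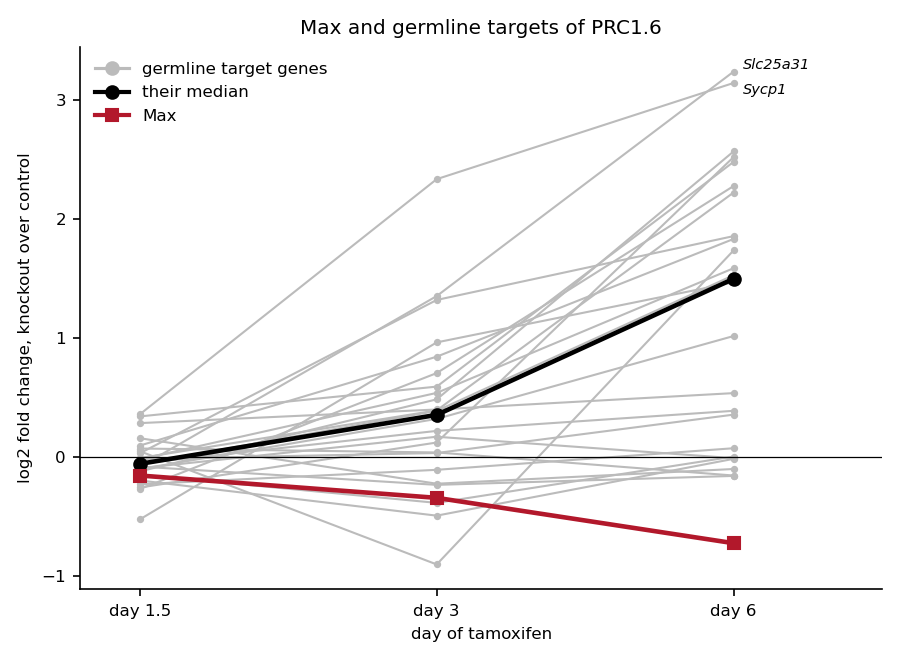
Log2 fold change of knockout over control (vertical axis) on days 1.5, 3 and 6 (evenly spaced) for 24 measured germline targets in grey, their median in black and Max in red. The median runs through -0.06, 0.36 and 1.50 while Max runs through -0.15, -0.34 and -0.72.

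The promoters of the germline targets held the E-box CACGTG, the letters that MAX and MGA recognise, in 11 of 23 genes with a window (47.8%), against 7.15% of all promoters and 8.09% of genes. The E-box was also in 4 of 10 genes of the MAX network, 2 of 7 partners of PRC1.6 and 1 of 8 members. The E2F core GCGGGA, on either strand, was in 12 of 23 (52.2%), against 22.0% of all genes with a window, and 2 of 8 members held it, E2f6 and Rnf2. It was also in 5 of 10 genes of the MAX network and 6 of 7 partners. Neither motif was thus particular to the germline targets, and the lists were not tested against each other. No target held ACTACA. The E-boxes of the 4 named targets that have one are printed with 20 bases on each side, beside that of Max itself, in capitals, so that the shared letters can be seen. They lie at chr3:40708758-40708803 (Slc25a31, plus strand), chr3:102936169-102936214 (Sycp1, minus strand), chrX:134476514-134476559 (Taf7l, minus strand), chr13:112652314-112652359 (Ddx4, minus strand) and chr12:76962226-76962271 (Max, minus strand), all GRCm38.p6.
Slc25a31: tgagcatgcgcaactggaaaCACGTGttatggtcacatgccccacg
Sycp1: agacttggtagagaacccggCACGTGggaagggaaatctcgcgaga
Taf7l: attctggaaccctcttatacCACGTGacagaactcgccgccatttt
Ddx4: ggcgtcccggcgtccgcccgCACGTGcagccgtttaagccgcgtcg
Max: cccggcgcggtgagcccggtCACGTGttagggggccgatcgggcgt
The E-box of Slc25a31 starts at -93, that of Sycp1 at -94, that of Taf7l at -49 and that of Ddx4 at -29 from the start site. Hsf2bp and Sycp2 had none in their windows, though Sycp2 rose on day 6 and Hsf2bp was not called. These matches are descriptions of letters and were not tested as sites.

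Genes for other partners of MAX and of its relative MLX were read beside it. Of 11 genes of the MAX network, limma called 1 on day 1.5 (lower), 5 on day 3 (4 higher, 1 lower) and 7 on day 6 (5 higher, 2 lower), with a median of 0.26 on day 6. Over all genes the shares called were 9.91%, 23.4% and 32.5%. Against the controls of days 1.5 and 6, 8 of the network were called on day 3 (5 higher, 3 lower). Of all 18194 genes, 4637 were called on that reading (1821 higher, 2816 lower). Myc read 1032 and 1112 in knockout arrays of day 6, against 690.8 and 671.8 in control arrays (0.65 ± 0.054). On day 3 Myc read 476.5 and 497.6 in knockout arrays, against 283.6 and 282.0 in control arrays of day 3 and 719.5 and 717.0 in control arrays of day 1.5. Its rise of day 3, 0.78 ± 0.054, therefore turned to -0.52 (adjusted p = 6.9e-05) against the controls of days 1.5 and 6. Mycn, the MYC paralogue of stem and neural cells, rose by 0.26 and 0.43 on days 3 and 6, and Mnt, a MAX partner that represses, rose by 0.51 on day 6. Mxi1, another repressive partner, fell by 0.45 on day 6. On day 3 it had -0.24, which turned to 0.11 against the controls of days 1.5 and 6 and to 0.02 with the mean of probe sets. Mlxip, which pairs with MLX rather than MAX, fell by 0.53 on day 6. With each array left out the network's count was 2 to 5 on day 3 and 6 to 7 on day 6.

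Among the 18 measured subunits of other PRC1 complexes, limma called 1 on day 1.5 (lower), 5 on day 3 (3 higher, 2 lower) and 5 on day 6 (4 higher, 1 lower), where 9.91%, 23.4% and 32.5% of all genes were called. Against the controls of days 1.5 and 6, 3 were called on day 3 (2 higher, 1 lower). Of all 18194 genes, 4637 were called on that reading (1821 higher, 2816 lower). Bmi1, the PCGF subunit of canonical PRC1, read 516.3 and 496.5 in knockout arrays of day 6, against 232.9 and 231.4 in control arrays. Its log2 fold changes were 0.22, 0.67 and 1.12, each ± 0.079 (adjusted p of 0.12, 0.00035 and 8.3e-06), and that of day 3 was 0.18 (adjusted p = 0.087) against the controls of days 1.5 and 6. Pcgf6, its counterpart in PRC1.6, had -0.18 on day 6, or -0.01 with the mean of its probe sets. Bcor, a corepressor of PRC1.1, was higher on days 3 and 6 at 0.33 and 0.42, and its -0.29 on day 1.5 was called in 7 of 22 alternative settings. Pcgf5, another PCGF subunit, had 0.22 on day 6 (adjusted p = 0.043), called in 9 of 22 settings. Cbx2, a chromodomain subunit, was lower on day 6 at -0.21, called in 17 of 22 settings. On day 3 Cbx2 was higher at 0.27, or 0.14 (adjusted p = 0.086) against the controls of days 1.5 and 6. With each array left out the count was 0 to 1 on day 1.5, 1 to 5 on day 3 and 2 to 5 on day 6.

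Of 8 partners of PRC1.6 that are not core subunits, limma called 1 on day 1.5, 3 on day 3, all higher, and 3 on day 6 (2 higher, 1 lower), shares near the 9.91%, 23.4% and 32.5% of all genes. Hdac1, a histone deacetylase, rose on all 3 days, at 0.25, 0.38 and 0.21, and its call of day 1.5 held in 16 of 22 alternative settings. Tfdp2, a dimerisation partner of E2F proteins, rose by 0.26 on day 6, called in 16 of 22 settings. Ehmt2, a histone H3 lysine methyltransferase, had 0.20 on day 3, called in 7 of 23 alternative settings, and -0.04 against the controls of days 1.5 and 6. On day 6 Ehmt2 had -0.19, called in 13 of 22 settings, and 0.02 with the mean of probe sets. With each array left out the counts were 0 to 1, 1 to 2 and 0 to 3 on the 3 days.

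Of 11 PRC2 subunits, limma called 2 higher on day 1.5, 2 higher and 1 lower on day 3, and 1 higher and 3 lower on day 6, shares near the 9.91%, 23.4% and 32.5% of all genes. Aebp2, an accessory subunit, rose on all 3 days, at 0.22, 0.24 and 0.44, and its call of day 1.5 held in 15 of 22 alternative settings. Phf19, a Tudor-domain accessory subunit, fell by 0.65 on day 6. On day 3 it had -0.38, which turned to 0.03 (adjusted p = 0.84) against the controls of days 1.5 and 6. Ezh1, the alternative catalytic subunit, fell by 0.30 on day 6, called in 18 of 22 settings. The histone chaperone gene Rbbp7 fell by 0.17 on day 6, called in 16 of 22 settings. With each array left out the counts were 0 to 2, 1 to 4 and 2 to 5.

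The other E2F genes were read beside E2f6, with no test of the difference. On days 1.5, 3 and 6 limma called 1, 2 and 2 of the 7 others, against 9.91%, 23.4% and 32.5% of all genes. E2f2 was called lower on all 3 days, at -0.46, -0.34 and -0.69 (day 3 in 10 of 23 alternative settings). E2f4 was called lower on day 6, at -0.29. E2f2 encodes an activator and E2f4 a repressor of cell cycle genes. E2f8 was called higher on day 3, at 0.19 (adjusted p = 0.031), and read -0.04 against the controls of days 1.5 and 6. On day 6 E2f8 had 0.15 (adjusted p = 0.052). With each array left out, 0 to 1 of the others were called on day 3 and 1 to 3 on day 6.

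**Figure D5:**
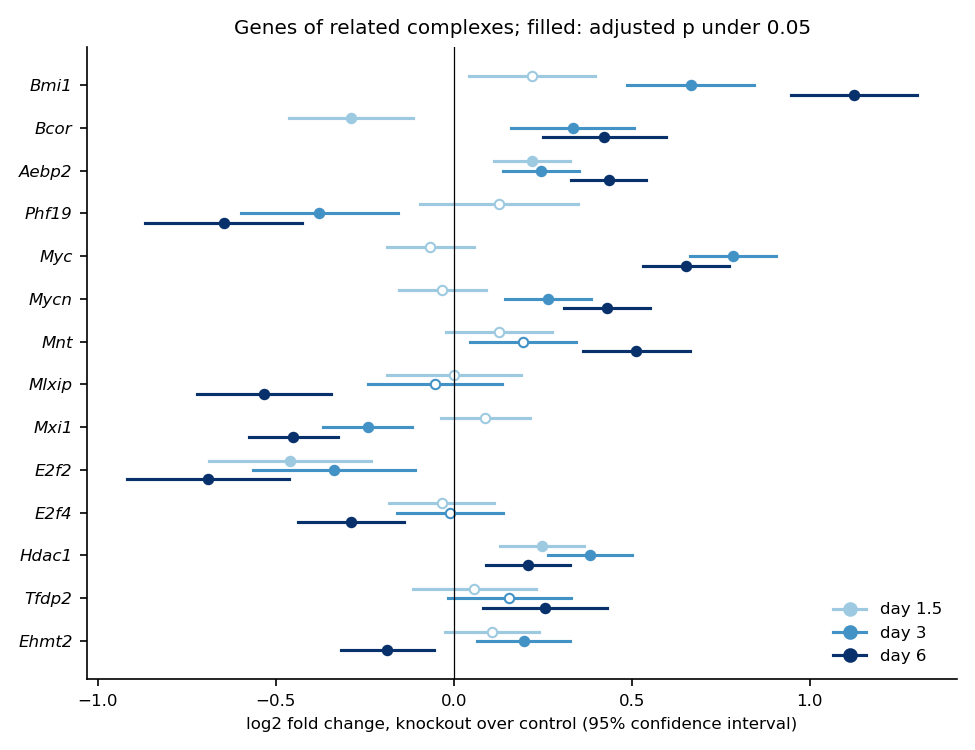
Log2 fold change of knockout over control (horizontal axis) with its 95% confidence interval on days 1.5, 3 and 6 (light to dark) for 14 genes of related complexes, filled where the adjusted p was under 0.05. Bmi1 reaches 1.12 on day 6, Myc 0.65, Phf19 -0.65 and E2f2 -0.69.

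The 5 genes most like Max over the 12 arrays, by Pearson correlation of log2 intensity, were Imp3, Nup210, Brcc3, Tst and Brsk1, at 0.9738, 0.9736, 0.9687, 0.9669 and 0.965. Imp3, a part of the ribosomal RNA processing machinery, read 1448 and 1452 in knockout arrays of day 6, against 2187 and 2251 in control arrays. Nup210, a nuclear pore glycoprotein, read 394.3 and 408.1 in knockout arrays of day 6, against 641.9 and 699 in control arrays. Tst, a mitochondrial sulfurtransferase, read 131.3 and 135.5 in knockout arrays of day 6, against 299.9 and 322.3 in control arrays. Their choice by likeness to Max over these same arrays fixed a lower level in knockout cells of day 6, where their log2 fold changes were -0.61, -0.74, -0.57, -1.22 and -0.22 in the order named. The 4 with a promoter window, all except Tst, held no extended Ronin element.

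Markers of other cell types moved on some of the same days, and their part in the values above was not tested. The counts below stand beside 9.91%, 23.4% and 32.5% of all genes called on days 1.5, 3 and 6. Of 7 primed epiblast markers, limma called 5 lower on day 1.5, 4 higher on day 3, and 4 higher and 2 lower on day 6. Their summed intensity on day 6 was 6718 and 6802 in knockout arrays, against 7652 and 7642 in control arrays. Of 10 primitive endoderm markers, 6 were lower on day 1.5, 4 higher and 1 lower on day 3, and 2 higher and 3 lower on day 6. On day 3 that list summed to 3756 and 3840 in knockout arrays, against 2738 and 2907 in control arrays. Control arrays of the other days summed to 5853 to 6096, above the knockout arrays of day 3. On day 6 the list summed to 7153 and 7008 in knockout arrays, against 6088 and 6096 in control arrays. Of 10 fibroblast or feeder markers, 4 were lower on day 6 and 0 higher, with sums of 424.4 and 433.7 in knockout arrays, against 538 and 620.2 in control arrays. Of 7 trophoblast markers, 3 were higher and 1 lower on day 6, with sums of 1701 and 1754 in knockout arrays, against 1973 and 1940 in control arrays. RMA intensities carry no detection call here, so no marker could be placed at 0.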

How the data were processed

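RNA from 12 samples was measured on Affymetrix arrays. The authors deposited an intensity for each probe set, and RMA is the tool named, with no version, per the submitters' processing notes. RMA corrects background, equalises the arrays' distributions and summarises probes. They ran from 5.511 to 34993, a linear scale, with array medians of 42.37 to 44.72, and their log2 was taken with no pseudocount. A genome build for the probe sets is not given in the sources used here. Of 45101 probe sets, the platform annotation gave 34958 a single symbol, 932 more than 1 and 9211 no symbol. The brightest single-symbol probe set stood for each of 18194 genes, with no filter on dim genes; all 9 measured members lay outside the dimmest 40%.

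Differences were tested with limma 3.58.1 (R 4.3.3), fitting the 6 group means to all 12 arrays, then eBayes with 6 residual and 3.04 prior degrees of freedom, and Benjamini-Hochberg adjustment over all genes at 0.05. The number of arrays limits the precision. The test was checked on simulated data. The members and all lists and motifs were chosen with earlier results of these data known. Named genes were all members and Thap11, from each list up to 4 called genes with the largest change on day 6 and the 2 brightest others, and the 5 genes most correlated with Max, leaving out clone and model numbers. Not every gene so named is described.

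Promoter windows came from a RefSeq table (GRCm38.p6) and were searched with Python 3.11.15. Plots were drawn with matplotlib 3.10.9. Alternatives were a replicate term, arrays of 1 day only, trend and robust eBayes, array weights, a filter on the dimmest 40%, the mean of a gene's probe sets, all probe sets, median centring, quantile normalization, log2 of intensity plus 16, each array left out, and the controls of days 1.5 and 6 for day 3. The replicate numbers of the labels did not pair the samples: over 15 pairs of groups the correlation of deviations was -0.057 to 0.17 and exceeded 0.1 in 1.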

Additional observations from a re-analysis of the deposited data

Results flagged for a closer look

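For 3 members the knockout effect differed between days by the test of that difference itself (limma, adjusted over 18194 genes). For Max the effect of day 6 minus that of day 1.5 was -0.568 on the log2 scale (adjusted p = 0.019), with both arrays of each genotype apart on both days. For E2f6 the same difference was 0.445 (adjusted p = 0.0095), the knockout arrays being dimmer than control arrays on day 1.5 and brighter on day 6. For Pcgf6 the effect of day 6 minus that of day 3 was -0.316 (adjusted p = 0.02), the knockout arrays being brighter than control arrays on day 3 and dimmer on day 6. With single arrays left out, the differences ran from -0.735 to -0.402 for Max, from 0.386 to 0.503 for E2f6 and from -0.37 to -0.263 for Pcgf6.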

How the results depend on the processing

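With single arrays left out, the members called in knockout over control ran from 0 to 1, 0 to 3 and 2 to 4 on days 1.5, 3 and 6. The same range was 0 to 0, 0 to 1 and 1 to 2 for the change of effect between days 3 and 1.5, 6 and 3, and 6 and 1.5. In knockout cells it was 0 to 1, 3 to 7 and 3 to 5 for days 3 over 1.5, 6 over 3 and 6 over 1.5, and in control cells 1 to 3, 1 to 3 and 0 to 0. Trend and robust eBayes called 1 member on day 1.5 and 5 on day 3 (0 and 3 as reported). Without the dimmest genes there were 2 on day 1.5 and 5 on day 3, then 2 and 3 for the changes of effect from day 1.5 to 3 and from day 3 to 6 (reported 0 and 1), 3 for knockout cells of day 3 over 1.5 (reported 1) and 1 for control cells of day 6 over 1.5 (reported 0). The mean of probe sets called 2 members on day 6 (reported 4), 0 for the change of effect from day 3 to 6, 2 for knockout cells of day 3 over 1.5 and 1 for control cells of day 6 over 1.5. Median centring gave 1 on day 1.5 and 2 for knockout cells of day 3 over 1.5, quantile normalization gave 3 for that comparison, and log2 of intensity plus 16 gave 1 on day 1.5. On day 3, array weights, all probe sets in the fit and only the arrays of the day each called 1.

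Direction turned under the mean of probe sets for Mxi1 on day 3 (0.0214), Ehmt2 on day 6 (0.0152), and Mga (-0.0802) and Rnf2 (-0.0318) in knockout cells of day 6 over day 3. Against the controls of days 1.5 and 6 it turned on day 3 for E2f6 (-0.181), Ehmt2 (-0.042), Phf19 (0.0299), Myc (-0.523), Mxi1 (0.115) and E2f8 (-0.043). That setting made 39.3% of 4637 calls over all genes higher, where the reported fit made 57.1% of 4250 higher. Over all genes, day 1.5 had 1803 calls as reported, 2756 with trend and robust eBayes, 455 with only the arrays of the day, and 714 to 833 without an array of that day. Day 3 had 2506 with only the arrays of the day and 2727 without knockout replicate 1. With the replicate block, members called stayed within 1.5 times of every reported count, and Mga on day 3 was not called (adjusted p = 0.061). No cause of these differences was tested. The 2 arrays per group limit the precision, and signal over background could not be read from these values.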

Other observations

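Probe sets that name a member together with a pseudogene could not be assigned to either gene. The brighter of the 2 that name Rybp and Rybp-ps read 6422 and 6554 in knockout arrays of day 6, against 6818 and 6883 in control arrays, a log2 fold change of -0.08 ± 0.056 (limma over all probe sets, adjusted p = 0.40). The dimmer Rybp probe set read 202.2 and 207.3 in knockout arrays of day 6, against 238.7 and 249.3 in control arrays (-0.25 ± 0.084, adjusted p = 0.067), and had 0.29 ± 0.084 on day 3 (adjusted p = 0.052). Of the 4 that name Cbx3 and Cbx3-ps5, 1 was called in knockout over control, lower on day 6 at -0.19 ± 0.056 (adjusted p = 0.047). The single-symbol Cbx3 probe set had -0.13 on that day. On day 1.5 the 4 had 0.01, -0.01, 0.02 and -0.10, against -0.24 for the single-symbol probe set. In knockout cells of day 3 over day 1.5 they had -0.16, 0.08, 0.03 and 0.46, none called, against 0.36. The brightest read 10070 and 9757 in knockout arrays of day 1.5, where the single-symbol probe set read 137.5 and 115.8.

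Further germline targets outside the rule for named genes, chosen after their values were seen, moved between days in unlike ways. The day 3 values of these further targets are given against the day 3 controls alone. Sycp3 was lower than those controls by 0.90, with 569.7 and 602.1 in knockout arrays of day 3, against 1097 and 1091 in control arrays. On day 6 Sycp3 rose by 1.74 (1653 and 1674 in knockout arrays, against 485.5 and 513.6 in control arrays). Its knockout readings of day 3 thus lay above the control readings of day 6. Syce1 was lower on day 1.5 at -0.52 and higher on days 3 and 6 at 0.96 and 1.47. Stag3, a meiotic cohesin subunit, rose by 0.59 on day 3 and 2.48 on day 6, whereas Smc1b, another meiotic cohesin subunit, was lower on day 3 at -0.38 and had 0.00 on day 6 (limma adjusted p = 0.98). Of the 8 measured members with a promoter window, which leaves out Yaf2, Cbx3 alone had a divergent neighbouring start within 1000 bases in the RefSeq table, that of Hnrnpa2b1, with a log2 fold change of -0.17 on day 6 (adjusted p = 0.051).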
